A study of Arabidopsis lyrata subsp. lyrata and Arabidopsis thaliana with 7 samples.

Results

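The dissected shoot apex of *Arabidopsis lyrata* was compared with the entire vegetative rosette, gene model by gene model. The comparison used 3 of the 7 libraries of the series: 1 of shoot apices and 2 of rosettes (replicates 1 and 2). The members are 31,963 gene models among the 32,793 models of the deposited count table, and 25,463 of them passed a filter on low counts and were tested. They are the models whose source in the annotation is AUGUSTUS, Cufflinks or JGI, and they are called protein coding here. A coding region was not required of them, and models containing a transposable element were kept. A gene model was reported as different only where the apex lay outside both rosette libraries. The apex and rosette plants were *A. lyrata* subsp. *lyrata* of the accession MN47, grown in soil without treatment under 16 h of light and 8 h of dark at 21°C, and both tissues were taken at the stage of 5 leaves, at an age of about 3 weeks. The 21°C is that of the sample labels, and the authors' paper gives 16°C for the dark. For the apex, hypocotyl, roots, cotyledons and true leaves had been cut away with a razor blade. The apex library is labelled as dissected shoot apical meristem, but what remains after such cutting also holds the youngest leaf primordia and the stem below them. How many plants entered a library, at which hour they were taken and whether the rosette replicates came from separate plants is not given in the sources used here, so the p values measure the spread between libraries. The 2 inflorescence libraries of the same accession entered the fit to estimate that spread.

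The shoot apical meristem is a small group of dividing cells at the tip of the stem that keeps a pool of stem cells and forms leaves on its flanks. In *A. thaliana*, KNOX homeobox proteins such as STM keep its cells undifferentiated, CUC proteins mark the boundaries between the meristem and new organs, and a local rise of auxin marks where organs start. Grown leaves, which make up most of a rosette, divide little and are filled with chloroplasts. Functions are given here through the *A. thaliana* orthologs that the deposited annotation lists, and they are known from that species.

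Genes of the meristem, of organ boundaries and of organ growth stood among the models that were higher in the apex, and nearly all tested genes of photosynthesis were lower. By edgeR's quasi-likelihood test with an adjusted p under 0.05, 538 gene models were called higher in the apex than in the rosettes (2.11% of those tested) and 1,535 were called lower (6.03%). All of them lay outside both rosettes. The median log2 fold change was 1.93 among the models called higher and -2.25 among those called lower, against 0 over all tested models. The models called lower held 38.0% and 40.4% of all rosette counts and 9.03% of those of the apex (95% Wilson interval 9.02% to 9.05%, counting error only). Those called higher held 0.631% and 0.508% in the rosettes and 3.12% in the apex. A second rule without a test asked for an apex level at least 2-fold beyond both rosettes, with at least 10 reads in the apex or in each rosette. It was met by 2,563 models on the higher side (10.1%) and 3,036 on the lower side (11.9%), among them 517 of the 538 and 1,526 of the 1,535 called models.

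The test rests on few libraries. The apex has 1 library, for which the spread of the duplicated tissues is assumed, and without inflorescence replicate 1, or without replicate 2, no model passed the adjusted threshold, while 1,605 and 2,588 models, or 1,593 and 2,573, were higher and lower at an unadjusted p under 0.05. Without rosette replicate 1, 4,913 and 5,814 were called, and without rosette replicate 2, 3,196 and 4,949. Counts of list members moved likewise, and for the fits without a rosette replicate only the medians are given with most lists. In the fits without a rosette replicate 1 apex library stood against 1 rosette and the spread came from the inflorescences alone. Their counts are thus not added evidence of a direction. Where no model passed the threshold, no list member was called, and a fit of the apex and the rosettes alone called none either. DESeq2 called 1,560 models higher and 3,033 lower. Without the filter on low counts 401 and 1,316 models were called, and the genes *CUC2*, *PCNA1*, *CDC6*, *AHK4*, *SIM*, *DEL1*, *KYP* and *DDM1*, described here as called, then missed the threshold. The balance of the directions depends on the scaling. With the TMM factors of edgeR, 26.0% of the calls were higher in the apex, with upper quartile scaling 47.6%, and with library totals alone 83.0%, where the median of all tested models moved to 0.67 on the log2 scale. All other fold changes are relative to the TMM scaling. Levels are given in CPM, counted reads scaled to the library total and to its TMM factor, and are to be compared between libraries and not between genes of different length.

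**Figure D1:**
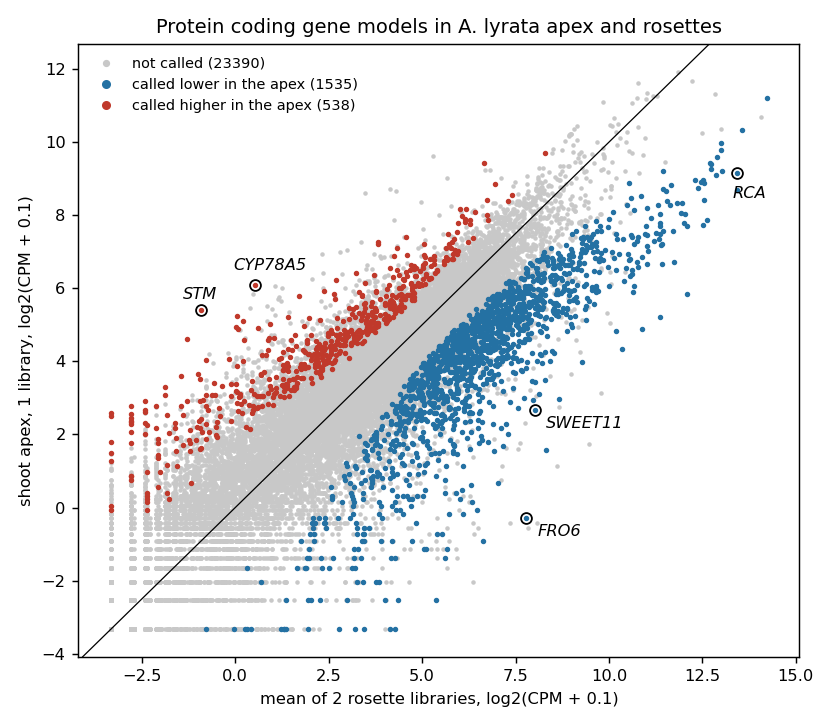
Each point is 1 of the 25,463 tested protein coding gene models, with the mean level of the 2 rosette libraries on the horizontal axis and the level of the apex library on the vertical axis, both as log2(CPM + 0.1). The line marks equal levels; the 538 models called higher (red) lie above it and the 1,535 called lower (blue) below it, and circles mark 5 models named in the text.

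The rosette libraries differed from each other. Of the tested models, 16.6% differed by more than 2-fold between the rosettes with at least 10 reads in 1 of them. Rosette replicate 1 was the higher one for 48.6% of all tested models, but for 24 of 24 genes of mitosis, 12 of 12 organ polarity genes, 10 of 12 KNOX and BELL genes and 2 of 31 genes of light harvesting. The meristem gene *STM*, for example, had 10 reads in replicate 1 and none in replicate 2. In bulk tissue, fewer cells of a type and less RNA per cell cannot be told apart. The rosettes thus also differed in markers of young tissue, and the part of this difference in the other results was not tested.

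The KNOX homeobox genes that maintain the meristem were among the models with the largest changes. *STM* (*SHOOT MERISTEMLESS*, AL2G13360, scaffold 2, 1,789,282 to 1,792,519, 4 exons) reached 0.865 and 0 CPM in the rosettes and 42.2 CPM in the apex. It was 97.6-fold above the rosette mean, with a log2 fold change of 6.49 ± 0.89 (SE, edgeR adjusted p = 0.0354). *KNAT2* (scaffold 2, 14,463,788 to 14,469,613) had 0.432 and 0.104 CPM in the rosettes and 11.99 CPM in the apex (log2 fold change 5.39 ± 0.62, edgeR adjusted p = 0.0320). *KNAT6*, which acts with *STM* at the boundary, rose from 3.98 and 3.32 CPM to 24.0 CPM (log2 fold change 2.71 ± 0.25, edgeR adjusted p = 0.0318). *KNAT1* (*BREVIPEDICELLUS*) had 3.98 and 0 CPM in the rosettes and 67.2 CPM in the apex. The apex was above both rosettes and the gene was not called (log2 fold change 5.02 ± 1.31, edgeR adjusted p = 0.0900).

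Of the 12 genes in the list of KNOX and BELL genes and their leaf repressors, 5 were called higher and 0 lower, with a median log2 fold change of 1.63. The median of this list was 2.23 without rosette replicate 1 and 1.66 without replicate 2. The BELL partner gene *BLR* had 9.34 and 8.51 CPM in the rosettes and 26.0 CPM in the apex. *AS1*, a MYB gene that represses KNOX genes in leaf primordia, had 26.4 and 30.9 CPM in the rosettes and 94.4 CPM in the apex (log2 fold change 1.72 ± 0.19, edgeR adjusted p = 0.0318). Both were called higher. The KNOX genes of the other class, *KNAT3*, *KNAT4* and *KNAT5*, which act in differentiating tissue, lay below both rosettes and were not called. *KNAT4*, for example, had 48.1 and 104 CPM in the rosettes and 11.99 CPM in the apex.

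Genes of the organ boundary were above both rosettes in 13 of 13 cases, where 37.2% of all tested models were, and 2 of them were called higher. Their median log2 fold change was 3.54, the highest of the 29 lists, or 3.21 without *LOF2*, which had 1 read in the apex and none in the rosettes. *LOF2* thus could not lie below the rosettes, and it had 453 and 473 reads in the inflorescences. Few reads were also counted for *LAS* (1, 0 and 9 in rosettes and apex) and *RAX1* (2, 0 and 6). When rosette replicate 1 or 2 was left out, the median of the boundary genes was 6.23 or 2.75. The NAC genes *CUC2* and *CUC3*, which separate organs from each other and from the meristem, were the called ones. *CUC2* (scaffold 8, 16,181,481 to 16,190,345) had 0.605 and 1.04 CPM in the rosettes and 5.10 CPM in the apex (log2 fold change 2.64 ± 0.44, edgeR adjusted p = 0.0444). *CUC3* had 0.692 and 0.519 CPM in the rosettes and 4.52 CPM in the apex. Of the other members, *LSH4* had 87 and 6 reads in the rosette libraries and 1,055 in the apex, *BOP1* had 22, 1 and 169, and *LOB* had 8, 0 and 71, in the same order. Each of these lay at least 2-fold above both rosettes without being called.

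The AP2-type factors and related genes that promote organ initiation followed a like pattern. Of 8 genes in the list 6 were tested, all were above both rosettes, and 2 were called higher (median log2 fold change 3.15, or 2.79 with *LFY* at the bound that a floor of 3 counts per rosette library sets). Without rosette replicate 1 the median of these factors was 4.59, and without replicate 2 it was 2.50. *AIL6* had 4.15 and 2.70 CPM in the rosettes and 19.7 CPM in the apex (log2 fold change 2.51 ± 0.32, edgeR adjusted p = 0.0336). *AIL5* had 3.46 and 1.87 CPM in the rosettes and 17.4 CPM in the apex. *ANT* (*AINTEGUMENTA*), which keeps organ primordia dividing, had 23.9 and 7.37 CPM in the rosettes and 116 CPM in the apex and missed the threshold (edgeR adjusted p = 0.0719). *LFY*, which turns a primordium into a flower, had 5 reads in the apex and none in the rosettes, so it could not lie below them.

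**Figure D2:**
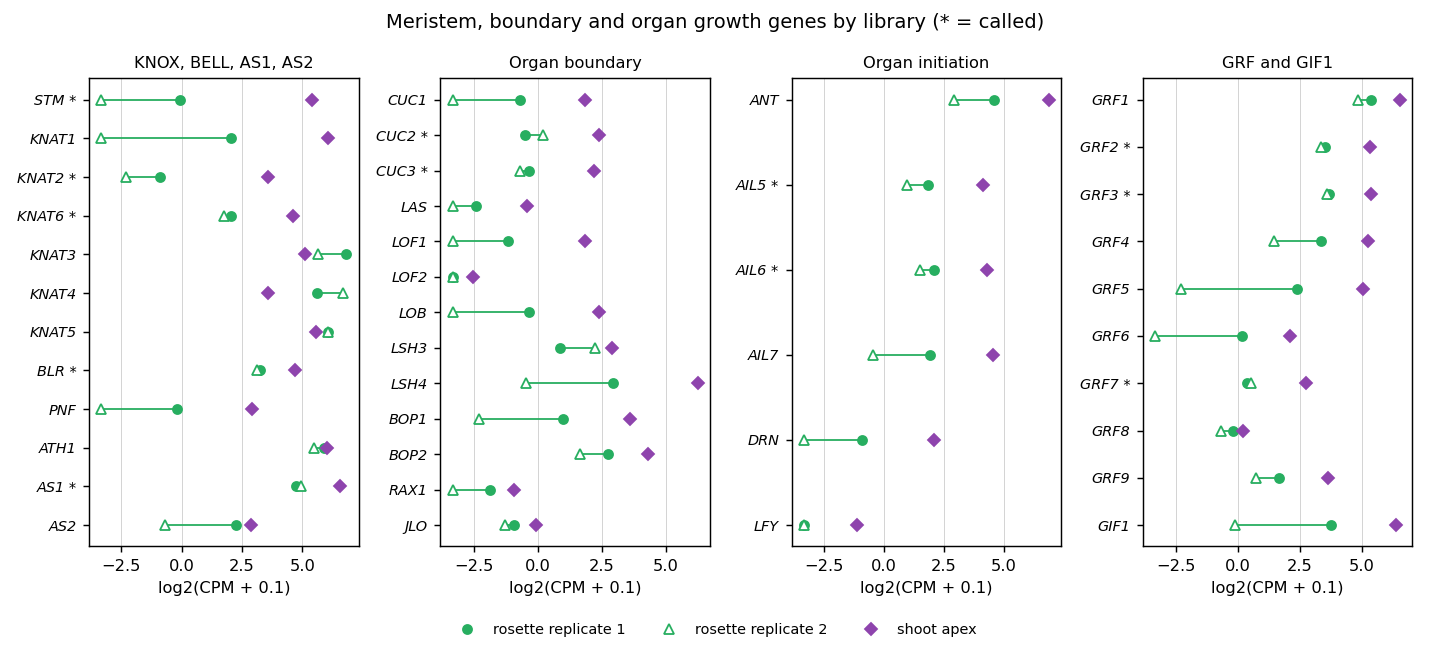
Levels of the tested members of 4 gene lists in each library, as log2(CPM + 0.1); filled circles are rosette replicate 1, open triangles rosette replicate 2 and diamonds the apex, and a line joins the rosettes. The apex lies to the right of both rosettes for all genes of the boundary, initiation and GRF panels, and asterisks mark the called genes.

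The genes at the centre of the stem cell niche were hardly detected. *WUS*, which is expressed in a few cells below the stem cells, had 2 reads in the apex, and *CLV3*, the peptide signal of the stem cells, had 3, with none of either in the rosettes. In the inflorescences *WUS* had 194 and 265 reads and *CLV3* had 0 and 1, so *CLV3* was hardly detected in any library. A count of 3 is the floor used here and corresponds to 0.215 CPM in the apex. Of the 17 genes tested in the WUSCHEL and CLAVATA list, 2 were called higher and 0 lower (median log2 fold change 0.79, or 0.67 without *WUS*). Above both rosettes lay 13 of them, where 37.2% of all tested models did. *WUS* is among the 13 and, with no rosette read, could not lie below. The list had medians of 0.69 without rosette replicate 1 and 0.73 without replicate 2. *BAM1*, a receptor kinase related to CLAVATA1, rose from 55.5 and 47.4 CPM to 178 CPM (log2 fold change 1.79 ± 0.19, edgeR adjusted p = 0.0318). *PLL1*, a phosphatase gene that acts in the CLAVATA pathway, rose from 9.34 and 9.86 CPM to 24.8 CPM. *CLV1* itself had 73.2 and 52.6 CPM in the rosettes and 63.4 CPM in the apex, between the rosettes.

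Growth-regulating factors, which promote cell division in young organs, and their partner gene *GIF1* were above both rosettes in 10 of 10 cases. At least 2-fold above both were 9 of the 10. Of all tested models 37.2% lay above both, 10.1% by at least 2-fold. Of the 10 genes, 3 were called higher. *GRF2* had 11.5 and 10.1 CPM in the rosettes and 40.7 CPM in the apex (log2 fold change 1.91 ± 0.21, edgeR adjusted p = 0.0318). *GRF3* had 12.9 and 12.1 CPM in the rosettes and 41.0 CPM in the apex, and *GRF7* had 1.21, 1.35 and 6.75 CPM in the same order. Their partner gene *GIF1* showed how far the rosettes can differ, with 154 and 8 reads, against 1,161 reads in the apex. The median log2 fold change of this list was 2.40. It was 2.66 without rosette replicate 1 and 1.96 without replicate 2.

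The CIN-type TCP genes, which end cell division in maturing leaves, mostly lay below the rosettes, but few passed the test. Of 8 tested, 1 was called lower and 0 higher, and 6 lay below both rosettes, where 38.2% of all tested models did. The median log2 fold change was -1.07. Leaving out rosette replicate 1 or 2 gave medians of -1.17 and -0.77 for the TCP genes. *TCP10* had 60.01 and 40.9 CPM in the rosettes and 13.6 CPM in the apex (log2 fold change -1.89 ± 0.32, edgeR adjusted p = 0.0449). With upper quartile scaling or with library totals alone it was not called. *TCP4*, a target of miR319 like *TCP10*, had 71.9 and 205 CPM in the rosettes and 49.7 CPM in the apex.

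Of 12 tested organ polarity genes, which set the upper and the lower side of a leaf, 1 was called higher and 0 lower. *ATHB15*, a gene of the HD-ZIP III family, which specifies the upper side and the meristem, rose from 54.4 and 45.8 CPM to 137 CPM (log2 fold change 1.45 ± 0.19, edgeR adjusted p = 0.0339). The family members *PHB*, *PHV*, *REV* and *ATHB8* had log2 fold changes of 1.33 to 1.55 and were not called. The KANADI genes of the lower side, *KAN1*, *KAN2* and *KAN3*, had -0.36 to 0.29. Of the 12 genes 8 were above both rosettes, where 37.2% of all tested models were, and the median log2 fold change was 0.92. Polarity genes had medians of 1.29 without rosette replicate 1 and 0.65 without replicate 2.

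Of 11 genes of auxin synthesis, transport and response, 0 were called by edgeR, 5 were higher and 1 lower at an unadjusted p under 0.05, and DESeq2 called 4 higher and 1 lower. The apex lay above both rosettes for 7 of them, between the rosettes for 3 and below both for 1 (median log2 fold change 2.24). Over all tested models it lay above both for 37.2% and below both for 38.2%. The 11 genes had a median of 2.95 without rosette replicate 1 and of 1.60 without replicate 2. *PID*, a protein kinase gene of organ initiation, and *MP*, the auxin response factor of organ initiation, were 2-fold or more above both rosettes and missed the threshold. *MP* had 21.4 and 10.5 CPM in the rosettes and 81.3 CPM in the apex (edgeR adjusted p = 0.0523). The biosynthesis genes *TAR2* and *YUC4* had 15.1 and 5.10 CPM in the apex, against at most 1.82 and 1.04 CPM in a rosette. *TAA1*, a biosynthesis gene as well, lay between the rosettes with 5.71 and 3.74 CPM in these and 5.53 CPM in the apex, as did the influx carrier genes *AUX1* and *LAX1*. *NPY1*, a gene of organ formation, had 59.7 and 53.6 CPM in the rosettes and 27.8 CPM in the apex.

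Of 11 tested genes of cytokinin synthesis and response, 2 were called higher and 0 lower, and 6 lay between the rosettes. The median log2 fold change of -0.01 changes sign with the scaling (0.78 with library totals alone). It was -0.22 without rosette replicate 1 and 1.21 without replicate 2. *LOG4*, which activates cytokinin in the outermost layer of the meristem, had 0.519 and 0.104 CPM in the rosettes and 7.46 CPM in the apex (log2 fold change 4.50 ± 0.68, edgeR adjusted p = 0.0391). *AHK4*, a cytokinin receptor gene, rose from 31.6 and 19.7 CPM to 89.9 CPM. *IPT3*, a cytokinin synthesis gene of the vasculature, had 39.0 and 25.8 CPM in the rosettes and 5.81 CPM in the apex and was not called. None of the 6 gibberellin oxidase genes was called by edgeR or by DESeq2, and 2 were higher at an unadjusted p under 0.05 (median log2 fold change 0.54). The median of these 6 genes was 1.03 without rosette replicate 1 and 0.92 without replicate 2. *GA2OX4*, which inactivates gibberellin at the base of the meristem, had 25 reads in the apex, against 1 and 0 in the rosettes.

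Genes of mitosis and of DNA replication lay above both rosettes with the exception of *CKS1*, but few were called. Of 24 tested genes of mitosis and cytokinesis, 23 lay above both rosettes and 18 were at least 2-fold above both. The shares over all tested models were 37.2% and 10.1%. The median log2 fold change of the 24 genes was 1.79. By edgeR's test none was called, 12 were higher at an unadjusted p under 0.05, and DESeq2 called 7 (1,560 over all tested models). Leaving out rosette replicate 1 or 2 gave medians of 2.91 and 1.20. Rosette replicate 1 was above replicate 2 for each of the 24 genes. *CDC20.1*, an activator of the anaphase-promoting complex, had 17.8 and 7.06 CPM in the rosettes and 92.6 CPM in the apex (log2 fold change 2.89 ± 0.53, edgeR adjusted p = 0.0519). The kinase gene *CDKB2;1* had 22.2 and 9.14 CPM in the rosettes and 63.2 CPM in the apex. *CKS1* lay below both rosettes, with 20.0 and 19.7 CPM in these and 16.0 CPM in the apex.

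Of 21 genes of G1/S control and DNA replication, all lay above both rosettes, 6 by at least 2-fold, and 2 were called higher (median log2 fold change 1.12). Of all tested models 37.2% lay above both, 10.1% by at least 2-fold. Replication genes had medians of 1.49 without rosette replicate 1 and 0.86 without replicate 2. *PCNA1*, the sliding clamp of DNA polymerase, rose from 13.8 and 10.9 CPM to 34.5 CPM (log2 fold change 1.48 ± 0.25, edgeR adjusted p = 0.0467). *CDC6*, which loads the replicative helicase, rose from 6.05 and 4.98 CPM to 15.7 CPM. The 6 helicase subunit genes *MCM2* to *MCM7* had log2 fold changes of 0.87 to 1.57 and none was called.

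Cell cycle inhibitors and activators of the endocycle, in which cells copy DNA without dividing, moved in both directions. Of 7 tested, 2 were called higher and 2 lower (median log2 fold change 0.38). The inhibitors and activators had medians of 0.22 without rosette replicate 1 and 0.45 without replicate 2. *KRP1*, an inhibitor of cyclin-dependent kinases, fell from 36.6 and 63.0 CPM to 2.08 CPM and was 23.9-fold below the rosette mean (log2 fold change -4.58 ± 0.49, edgeR adjusted p = 0.0318). *SMR1*, another inhibitor of these kinases, fell from 45.1 and 62.8 CPM to 6.46 CPM. *SIM*, which starts the endocycle in trichomes, rose from 5.28 and 3.43 CPM to 15.2 CPM. *DEL1*, an E2F-type repressor of the endocycle, rose from 4.84 and 2.80 CPM to 18.2 CPM.

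**Figure D3:**
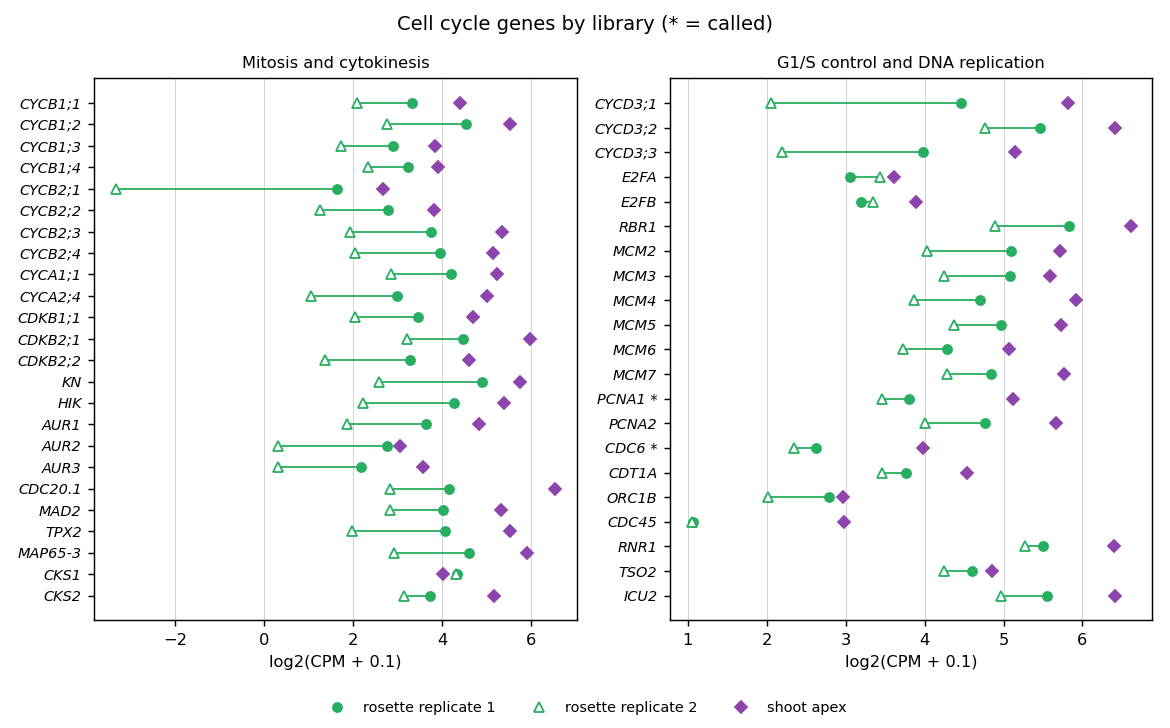
Levels of the tested genes of mitosis (left, 24 genes) and of G1/S control and DNA replication (right, 21 genes) in each library, as log2(CPM + 0.1), with the rosettes joined by a line and the apex as a diamond. The apex lies above both rosettes for every gene but *CKS1*, and rosette replicate 1 above replicate 2 for every gene on the left; asterisks mark the 2 called genes.

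Ribosome and nucleolar genes were above both rosettes in 11 of 12 cases, where 37.2% of all tested models were. Of the 12, 3 were called higher (median log2 fold change 0.77). When rosette replicate 1 or 2 was left out, the median of these genes was 0.68 or 0.80. The called genes code for nucleolar proteins that assemble ribosomes, *FIB2*, *NOP56* and *PES*. *FIB2* (fibrillarin) had 31.4 and 23.2 CPM in the rosettes and 96.7 CPM in the apex (log2 fold change 1.82 ± 0.24, edgeR adjusted p = 0.0337). None of the genes of ribosomal subunits was called. With library totals alone 11 of the 12 were called.

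Genes of DNA methylation and the small RNA pathway were above both rosettes in 15 of 19 cases, where 37.2% of all tested models were. Of the 19, 2 were called higher (median log2 fold change 0.98). The silencing genes had medians of 1.17 without rosette replicate 1 and 0.85 without replicate 2. The called ones were *DDM1*, a chromatin remodeller needed for methylation, and *KYP*, a histone methyltransferase. *DDM1* had 14.2 and 7.89 CPM in the rosettes and 47.9 CPM in the apex (log2 fold change 2.11 ± 0.37, edgeR adjusted p = 0.0484). *KYP* had 26.3, 26.1 and 51.5 CPM in the same order. *MET1* and *CMT3*, which copy methylation after replication, had 83.5 and 137 CPM in the apex and at most 29.7 and 41.6 CPM in a rosette, and were not called. As for mitosis, replicate 1 was the higher rosette for 19 of 19 genes.

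Genes of light harvesting and the photosystems were lower in the apex almost without exception. Of 31 tested, 30 were called lower, and all 31 were at least 2-fold below both rosettes, with log2 fold changes from -4.23 to -3.02 and a median of -3.50. They held 11.9% and 14.9% of all rosette counts and 2.18% of those of the apex (95% Wilson interval 2.17% to 2.19%). *PSBO2*, a subunit of the oxygen-evolving complex, fell from 2,525 and 2,843 CPM to 144 CPM (log2 fold change -4.22 ± 0.33, edgeR adjusted p = 0.0318). *LHCB3*, a protein of the antenna of photosystem II, fell from 7,590 and 8,679 CPM to 880.2 CPM. *CAB1* was the gene that missed the threshold, with 132,713 and 222,957 reads in the rosette libraries and 22,793 in the apex (edgeR adjusted p = 0.0622). It stands next to *CAB2* in the annotation, and how reads shared by such near-identical copies were counted is not given in the sources used here.

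Genes of the Calvin cycle and photorespiration were lower too. Of 26 tested genes 25 were called lower and all 26 lay at least 2-fold below both rosettes, with a median log2 fold change of -3.77. Rubisco activase, *RCA* (scaffold 4, 19,281,820 to 19,284,597), fell from 12,531 and 9,265 CPM to 568 CPM, 19.2-fold below the rosette mean. *CP12-2*, a regulator of the cycle in the dark, had the largest change of the list, from 799.6 and 1,518 CPM to 28.5 CPM (log2 fold change -5.35 ± 0.75, edgeR adjusted p = 0.0357). *TPI*, the plastid triose phosphate isomerase, had the smallest (log2 fold change -1.96 ± 0.26). The peroxisomal catalase gene *CAT2* was not called, with 18,381 and 3,804 reads in the rosette libraries and 554 in the apex. Only *RBCS1B* of the 4 listed genes of the Rubisco small subunit was matched to a gene model, and it fell from 5,887 and 6,802 CPM to 233 CPM. The model AL7G50620, with no listed ortholog and next to it on scaffold 7, fell from 1,958 and 3,358 CPM to 37.2 CPM.

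Part of the genes of starch turnover and sugar export were called lower as well. Of 16 tested genes 6 were called lower and 0 higher, with a median log2 fold change of -1.93. Below both rosettes lay 14 of them, where 38.2% of all tested models did. Starch and sugar genes had medians of -2.05 without rosette replicate 1 and -1.74 without replicate 2. The sucrose exporter genes *SWEET11* and *SWEET12*, which load sucrose towards the phloem of leaves, changed most. *SWEET11* had 304 and 213 CPM in the rosettes and 6.32 CPM in the apex, and *SWEET12* had 51.4, 32.9 and 0.502 CPM in the same order. The second is 83.9-fold below the rosette mean (log2 fold change -6.37 ± 0.50, edgeR adjusted p = 0.0318). *APL1*, *SS1*, *SS4* and *DPE2*, genes of starch synthesis and breakdown, were called lower with log2 fold changes of -2.63 to -1.35, of which *SS1* was not called with library totals alone. For *GBSS1*, which makes amylose, the apex lay between the rosettes, at 83.9 CPM against 527 and 29.7 CPM.

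Among genes of nitrate reduction and amide synthesis 3 of 8 were called lower and 0 higher (median log2 fold change -1.41). When rosette replicate 1 or 2 was left out, the median of the nitrogen genes was -1.27 or -1.64. The plastid genes *GS2* and *GLU1*, which assimilate ammonium, fell from 1,976 and 2,188 CPM to 296 CPM and from 2,206 and 1,869 CPM to 210 CPM. The nitrite reductase gene *NIR1* fell from 765 and 831 CPM to 229 CPM. The nitrate reductase gene *NIA1* had 333 and 311 CPM in the rosettes and 380 CPM in the apex.

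Clock genes differed widely between the rosettes. None of the 12 clock genes was called by edgeR or by DESeq2, 0 had an unadjusted p under 0.05 with the apex outside both rosettes, and none was 2-fold outside both rosettes in either direction. For 9 of them the apex lay between the rosettes, where 6,264 of all tested models did. The clock list had medians of -1.27 without rosette replicate 1 and -0.19 without replicate 2. The morning gene *CCA1* had 57.3 CPM in rosette replicate 1, 1.87 CPM in replicate 2 and 9.62 CPM in the apex. The evening gene *TOC1* had 9.86 CPM, 471 CPM and 48.3 CPM in the same order. *FKF1*, a light receptor gene of the late day, had 3 and 1,603 reads in the rosette libraries and 7 reads in the apex. Morning genes were thus high and evening genes low in replicate 1, the reverse held for replicate 2, and the apex lay on the side of replicate 1 for *LUX*, *ELF4*, *PRR5* and *FKF1*. The hour at which each library was taken cannot be told apart from its tissue for genes that follow the clock.

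**Figure D4:**
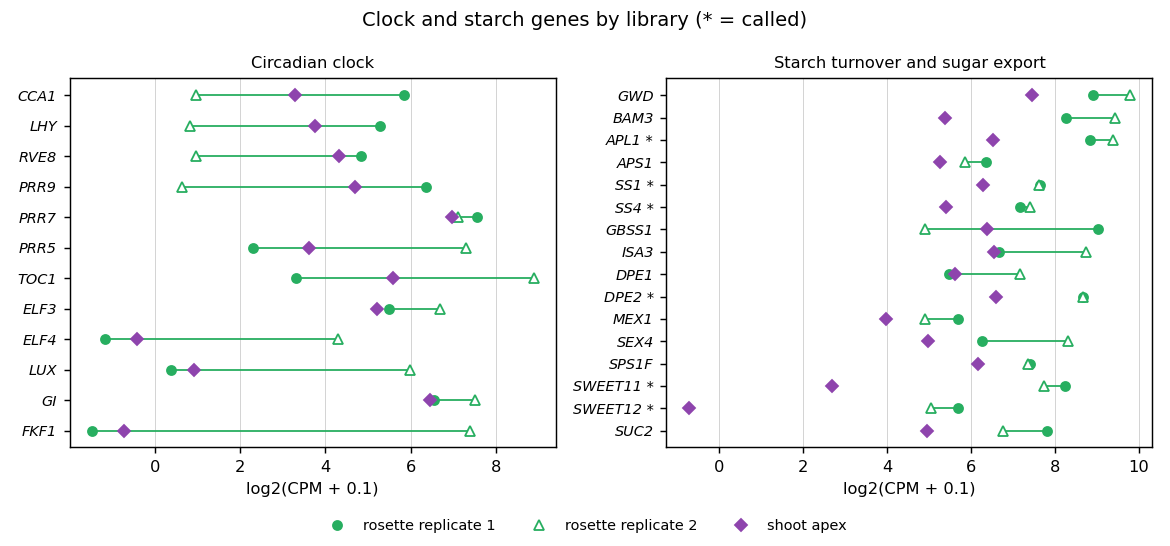
Levels of the tested genes of the circadian clock (left, 12 genes) and of starch turnover and sugar export (right, 16 genes) in each library, as log2(CPM + 0.1), with the rosettes joined by a line and the apex as a diamond. On the left the apex lies within the span of the rosettes for 9 of 12 genes and no gene carries an asterisk; on the right it lies below both for 14 of 16, and asterisks mark the 6 called genes.

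Apart from the lists, models were named by the size of their change. Named here are some of the 15 called models with the largest log2 fold change in each direction, and models without reads in a tissue. The 15 were taken at a mean log2 CPM above 3 over the 5 libraries, the inflorescences among them. A model low in apex and rosettes could thus enter through its level in the inflorescences. *KNAT2*, with a log2 fold change of 5.39 and a mean log2 CPM of 2.06, was left out by this cut. Of the 15 lower ones, AT5G01610 had 18 and 9 reads in the rosette libraries and 0 in the apex, and AT1G04540 had 13, 6 and 0. Both had far more reads in the inflorescences and, with under 10 reads in a rosette, did not meet the rule of 2-fold. *CYP78A5* (*KLUH*, scaffold 1, 5,761,906 to 5,763,861), a cytochrome P450 gene that sustains organ growth, had 26 and 4 reads in the rosette libraries and 954 in the apex. Its level was 51.4-fold above the rosette mean (log2 fold change 5.63 ± 0.75, edgeR adjusted p = 0.0344). *SHI*, a gene of a family that activates auxin synthesis, had 15 and 5 reads in the rosette libraries and 423 in the apex (log2 fold change 5.02 ± 0.48, edgeR adjusted p = 0.0318). For both genes the inflorescences had fewer reads than the apex, 239 and 196 for *CYP78A5* and 178 in each library for *SHI*.

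Some models had no read in either rosette. *bZIP42*, a bZIP factor gene, had 83 reads in the apex and was at least 20.9-fold higher, taking the floor of 3 counts per rosette library (edgeR adjusted p = 0.0335). The MATE transporter gene AT5G49130 (AL8G21950) had 77 reads in the apex and was at least 19.4-fold higher. *HB40*, a homeobox gene, had 47 reads and was at least 11.8-fold higher. *BCAT7* had 32 reads in the apex and 3,678 and 2,655 in the inflorescences, and AL7G18300, with no listed ortholog, had 38 in the apex. Further genes of the 15 were near 0 in the rosettes and had far more reads in the inflorescences. The sugar transporter gene *SWEET14* had 1, 0 and 24 reads in rosettes and apex and 2,526 and 1,818 in the inflorescences. *GH3.1*, a gene that responds to auxin, had 1, 0 and 22 reads in the same 3 libraries.

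Among the largest changes were also models with no listed ortholog. AL7G14300 (scaffold 7, 1,776,927 to 1,778,292) reached 521 reads in the apex, against 19 and 2 in the rosettes (log2 fold change 5.28 ± 0.86, edgeR adjusted p = 0.0439). AL6G50310, marked as containing a transposable element (TE), had 46 and 22 reads in the rosette libraries and 764 in the apex. AL1G23070 had 182 and 119 reads in the rosette libraries and 2,081 in the apex and was 10.6-fold above the rosette mean. No name or function is given to these models here.

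The largest changes downwards included neighbouring genes. The ferric reductase gene *FRO6* (scaffold 8, 13,429,843 to 13,433,397), expressed in green tissue, had 2,210 and 2,414 reads in the rosette libraries and 10 in the apex. It was 308-fold below the rosette mean (log2 fold change -8.25 ± 0.41, edgeR adjusted p = 0.0318). The next model on the scaffold, *FRO7* (13,435,281 to 13,438,747), a ferric reductase gene of the chloroplast, had 697, 387 and 5 reads in the same order (log2 fold change -7.10 ± 0.83, edgeR adjusted p = 0.0320). The cold-regulated genes *COR15B* and *COR15A*, which protect chloroplast membranes, are neighbours on scaffold 4. *COR15B* had 1,761 and 438 reads in the rosette libraries and 6 in the apex, and *COR15A* had 779, 242 and 7. They are copies of each other, so some reads may be split between them, and the rosettes differed in their level by more than 2-fold. In the inflorescences *COR15B* had 51 and 55 reads and *COR15A* had 4,142 and 4,373. At 130 and 144 CPM there, *COR15A* was above both rosettes (67.4 and 25.1 CPM).

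Models without a read in the apex were found as well. *RL5*, a small MYB-type gene, had 254 and 128 reads in the rosette libraries and was at least 81.9-fold lower in the apex, taking the floor of 3 counts there (edgeR adjusted p = 0.0318). AL1G58810, with no listed ortholog, had 251 and 165 reads in the rosette libraries and was at least 90.2-fold lower. AT5G41761 had 101 and 123 reads, the copper transport gene AT5G52740 had 81 and 109, and the receptor-like kinase gene *CRK8* had 63 and 78, with none of these in the apex. In the inflorescences the last 3 of these had at most 8 reads in a library. *BAM6*, a beta-amylase gene, had 703 and 1,133 reads in the rosette libraries and 12 in the apex, and the copper amine oxidase gene AT1G31690 had 3,496, 3,183 and 40.

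Markers of the root and of floral organs had few reads in the apex. Of 10 root genes 3 passed the filter, with 0 called by edgeR or DESeq2 and 0 at an unadjusted p under 0.05, and all 10 together had 15 and 2 reads in the rosette libraries and 26 in the apex, with *PLT1*, *PLT2*, *EXPA7* and *IRT1* at 0 in all 3 libraries. Of the 21 flowering and floral identity genes 1 was called higher and 1 lower (median log2 fold change -0.97). Flowering genes had medians of 0.00 without rosette replicate 1 and -0.26 without replicate 2. The floral organ genes *AP1*, *AP3*, *PI*, *AG*, *SEP1* and *SEP3* had 0 to 5 reads in the apex. *FD*, the bZIP partner of the floral signal FT at the apex, had 2.42 and 2.28 CPM in the rosettes and 9.69 CPM in the apex (log2 fold change 2.04 ± 0.29, edgeR adjusted p = 0.0371). *SOC1*, a MADS gene that promotes flowering, fell from 65.2 and 61.4 CPM to 19.5 CPM. *FT* itself, which is made in leaves, had 48 and 2 reads in the rosette libraries and 3 in the apex.

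Of 18 genes of epidermis, trichomes and stomata, 2 were called lower and 0 higher (median log2 fold change 0.52). Leaving out rosette replicate 1 or 2 gave medians of 1.23 and 0.02 for the epidermal genes. The called genes act late in the stomatal lineage or in the leaf mesophyll. *FAMA*, which completes guard cell formation, fell from 39.2 and 56.2 CPM to 8.11 CPM (log2 fold change -2.55 ± 0.34, edgeR adjusted p = 0.0344). *EPFL9* (*STOMAGEN*), a mesophyll signal, fell from 10.6 and 15.1 CPM to 1.72 CPM. The early lineage genes *SPCH*, *BASL* and *POLAR* lay above both rosettes and were not called. *POLAR*, for example, had 10.4 and 3.32 CPM in the rosettes and 32.4 CPM in the apex.

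Of 9 vascular genes, 1 was called higher and 1 lower (median log2 fold change 1.18). Vascular genes had medians of 2.56 without rosette replicate 1 and 0.72 without replicate 2. *PXY*, the receptor kinase of the procambium, rose from 35.9 and 37.4 CPM to 78.0 CPM. *APL*, a MYB factor gene of the phloem, fell from 36.6 and 35.9 CPM to 11.6 CPM (log2 fold change -1.64 ± 0.20, edgeR adjusted p = 0.0327). With library totals alone *APL* was not called. Xylem genes were present in the apex at a level above both rosettes, *XCP1* for example at 34.6 CPM against 10.8 and 0.623 CPM, and none was called. Of 6 reference genes none was called by edgeR or DESeq2, or was outside both rosettes at an unadjusted p under 0.05, and their median log2 fold change was -0.13, or 0.13 with upper quartile scaling and 0.67 with library totals alone.

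An ortholog was listed more often for the models called lower than for tested models in all. An *A. thaliana* ortholog is listed for 91.6% of the models called lower and 79.4% of those called higher, against 78.0% of all tested. A TE is marked in 6.45% and 7.06%, against 9.26%. Among tested models without a TE, 7.13% of those with an ortholog and 2.33% of those without were called lower, while 2.18% and 2.08% were called higher. The share called lower was thus smaller without an ortholog, and the shares called higher were close. Calls were spread over the genome: on the 8 chromosome scaffolds 1.94% to 2.38% of the tested models were called higher and 5.17% to 6.75% lower. Of the models called lower, 18.6% had a neighbour that was called lower too, against 11.6% of all tested models. For the models called higher this was 6.69%, against 4.16%.

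In the inflorescences, which hold floral meristems and young organs, the called models often lay on the same side of the rosettes. Both inflorescence libraries were above both rosettes for 462 of the 538 models called higher and below both for 1,391 of the 1,535 called lower. Over all tested models these numbers were 10,990 and 8,347. The same rosette libraries stand in both comparisons, and the inflorescences entered the fit, so the numbers are a description only. The apex was above all 4 other libraries for 411 of the models called higher (76.4%), and below all 4 for 806 of those called lower (52.5%). A called model lies outside both rosettes by the rule, and of all tested models with the apex above both rosettes 61.6% were above all 4, and of those with the apex below both 59.1% were below all 4.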

How the data were processed

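Poly-A RNA of *A. lyrata* MN47 was sequenced by the authors (single-end, not strand-specific) in 1 library of shoot apices, 2 of rosettes and 2 of inflorescences. The authors deposited raw counts of reads for each gene model of their version-2 annotation. The submitters' processing notes name FastQC, TopHat and TAIR10 with no version. Which tool did the counting, and by which rule for overlapping models, is not given in the sources used here. The authors also deposited values headed RPKM, used here as a score only: within a library the ratio of value to count is constant, so no gene length enters. They were not tested. From 10,556,736 (apex) to 28,347,972 reads were counted per library, with 14,440,792 and 13,340,336 in the rosettes. The counted reads were 79.7% to 81.5% of the library totals that the scaled values imply. A table of 2 *A. thaliana* rosette libraries was not used here.

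The test was that of edgeR 4.0.16 (with limma 3.58.1 under R 4.3.3). After filterByExpr, libraries were scaled by TMM, with factors of 0.801 (rosette replicate 1), 0.722 (rosette replicate 2), 1.32 (apex), 1.12 and 1.17 (inflorescences). A mean per tissue was fitted over the 5 libraries with glmQLFit and tested with glmQLFTest, with 2 residual and 2.32 prior degrees of freedom and a biological coefficient of variation of 0.303. A model was called where the Benjamini-Hochberg adjusted p over all 25,465 tested models was under 0.05 and the scaled CPM of the apex was outside both rosettes. Without an adjusted threshold, 7,896 protein coding models had a p under 0.05, and the lowest adjusted p was 0.0318, shared by many models. A standard error is the size of a log2 fold change over the root of its F statistic. Bounds against tissues without a read take a floor of 3 counts per library. Intervals and floors cover counting error only. Alternatives were DESeq2 1.42.0, other scalings, no filter, the replicate number as a block, leaving out each replicate, and the rule of 2-fold. The code was tested on simulated data. Tables and figures were made with Python 3.11.15, numpy 2.4.6, pandas 2.3.3 and matplotlib 3.10.9.

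Names and functions come from the *A. thaliana* ortholog that the annotation lists and from the TAIR10.1 annotation. In 29 lists were 427 genes, of which 415 matched a model, 404 were tested, 30 were called higher and 73 lower. The members and lists were chosen with earlier results of these data known, so the counts are not independent evidence of a direction. The counts and medians of list members under the alternatives were added after the data were seen. Named are list members and some of the 15 called models with the largest log2 fold change in each direction. The 15 were chosen at a mean log2 CPM above 3 over the 5 libraries, the inflorescences among them. Also named are up to 5 called models in each direction without a read in a tissue, and up to 5 without a listed ortholog. Coordinates are those of the deposited annotation. No *A. lyrata* sequence was used here. The values of 1 listed gene are not reported here.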

Additional observations from a re-analysis of the deposited data

How the results depend on the processing

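With TMM scaling 538 models were called higher and 1,535 lower. The higher calls moved to 1,106 with upper quartile scaling and to 5,473 with library totals alone, where 1,219 and 1,122 were lower. By DESeq2 1,560 were higher and 3,033 lower, and these held 536 and 1,533 of the edgeR calls. At least 2-fold beyond both rosettes, without a test, lay 2,563 and 3,036 models. In a fit of the apex and the rosettes alone edgeR called 0 higher and 0 lower (1,541 and 2,579 at an unadjusted p under 0.05). Leaving out each replicate in turn gave 0 to 4,913 models higher and 0 to 5,814 lower: without inflorescence replicate 1 or 2 none was called, without rosette replicate 1 it was 4,913 and 5,814 and without rosette replicate 2 it was 3,196 and 4,949. A fit with the replicate number as a block called 0 higher and 0 lower (2,287 and 3,730 unadjusted). The sources used here do not say whether the numbers pair the samples, and the apex has number 1 only. Across 25,465 models, the differences between replicates 1 and 2 of rosettes and inflorescences had a correlation of 0.0946. Such a value cannot decide whether libraries of the same number shared a batch. RLE factors (613 and 1,399), no filter on low counts (401 and 1,316), letting the apex lie between the rosettes (538 and 1,535) and leaving out models with a TE (500 and 1,436) stayed within 1.5 times. Of 142 called models that were followed by name, none changed direction under any of these fits. All 142 kept an adjusted p under 0.05 with RLE factors and with DESeq2, not counting whether the apex lay outside both rosettes. With library totals alone 139 did, with upper quartile scaling 141 and without the filter 126. In the fits that called no model, none of the 142 did. The cause of these differences was not tested. Depth limits what can be seen of rare transcripts: 3 counts are 0.215 CPM in the apex and 0.259 and 0.311 CPM in the rosettes.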

Other observations

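Few genes of defence, pigment and leaf age passed the test, and few of all tested models did (2.11% called higher and 6.03% lower). Of 21 tested genes of glucosinolate synthesis and myrosinases, which store and release mustard oils, 1 was called lower and 0 higher (median log2 fold change 0.29). Glucosinolate genes had medians of 0.15 without rosette replicate 1 and 0.38 without replicate 2. *TGG1*, a myrosinase gene of guard cells and of idioblasts in the vasculature, fell from 245 and 324 CPM to 28.5 CPM (log2 fold change -3.32 ± 0.31, edgeR adjusted p = 0.0318). Of the synthesis genes, *CYP79F1* had 489 and 367 CPM in the rosettes and 884 CPM in the apex, and *MYB28*, a regulator of aliphatic glucosinolates, had 177, 245 and 255 CPM in the same order. Neither was called. The list held 0.783% of the counts in the apex (95% Wilson interval 0.778% to 0.789%) and 0.442% and 0.406% in the rosettes, shares that carry no TMM factor.

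None of 12 flavonoid and anthocyanin genes was called by edgeR, 2 were higher and 1 lower at an unadjusted p under 0.05, and DESeq2 called 1 higher and 1 lower (median log2 fold change 0.81). Flavonoid genes had medians of 4.35 without rosette replicate 1 and -0.17 without replicate 2. The anthocyanin genes *DFR* and *LDOX* had 253 and 399 reads in rosette replicate 1, 0 and 1 in replicate 2, and 290 and 589 in the apex, so the apex was close to replicate 1 and far from replicate 2. Of 23 tested genes of jasmonate, wound and touch response, 1 was called higher and 0 lower (median log2 fold change 0.75). The wound list had medians of 2.05 without rosette replicate 1 and 0.58 without replicate 2. The called gene was *JAZ2*, a repressor of jasmonate signalling, with 39.3 and 28.0 CPM in the rosettes and 104 CPM in the apex (log2 fold change 1.63 ± 0.26, edgeR adjusted p = 0.0428). *LOX2*, a lipoxygenase gene of leaves, had 28,444 and 2,708 reads in the rosette libraries and 1,219 in the apex. Replicate 1 was the higher rosette for 21 of the 23 genes, and the part of cutting during dissection in these values was not tested. Of 8 genes of senescence and chlorophyll breakdown 1 was called lower and 0 higher (median log2 fold change -2.14, or -1.78 without *SAG12*, which had 2 and 0 reads in the rosette libraries and 0 in the apex). Senescence genes had medians of -0.37 without rosette replicate 1 and -2.45 without replicate 2. The called gene *SGR1*, which starts the breakdown of chlorophyll, fell from 33.6 and 23.7 CPM to 5.10 CPM (log2 fold change -2.49 ± 0.39, edgeR adjusted p = 0.0410).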
